A study of Homo sapiens with 9 samples.

Results

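Heat shock proteins are chaperones that keep other proteins folded, and 10 genes of this system were followed in HepG2, a human hepatoma cell line, treated with GW7647, a compound that activates PPARα, the fatty acid sensing nuclear receptor. The genes were listed by symbol, with no threshold on their values: HSPA8, HSPH1, DNAJB1 and BAG3 of the Hsp70 machinery, HSP90AA1 and HSP90AB1 of the Hsp90 machinery, the small heat shock protein HSPB1, the chaperonin pair HSPD1 and HSPE1, and HSF1, the transcription factor of the response. HSPD1 and HSPE1 work in the mitochondrial matrix and HSF1 is not a chaperone, so the set is wider than the cytosol. Every probe set that the array annotation ties to 1 of these symbols alone was read, which gave 22 probe sets for 9 of the 10 genes, out of 54613 probe sets and 19775 genes measured. All 4 probe sets of HSPA8, the constitutive cytosolic Hsp70, also carry the symbol of another gene, and HSPA8 was not analysed here.

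The study compared 3 groups of 3 Affymetrix arrays, each array hybridised with RNA of HepG2 cells. One group received DMSO vehicle, the second 100 nM GW7647 for 6 h and the third 100 nM GW7647 for 24 h. The labels give no hours for the vehicle group, so hours in culture and hours of exposure cannot be told apart. HepG2 is 1 tumour line, and the labels do not say whether replicates came from separate cultures, so the p-values below rest on array-to-array spread that could be purely technical.

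In unstressed cells HSF1 is held inactive, in part by the chaperones themselves. Unfolded protein, heat and several toxic metals draw the chaperones away, HSF1 forms trimers, and these bind inverted repeats of the bases GAA in the promoters of chaperone genes. Metallothioneins, small proteins that bind zinc, copper and cadmium, are raised by metals through a separate factor, MTF1, and for that reason heat shock genes and metallothioneins are often read side by side as indicators of protein damage and of metal exposure.

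The promoters of 4 members are shown. Of these, 2 belong to DNAJB1 and HSPH1, the genes that fell in these cells. The other 2 are of HSP90AA1 and HSP90AB1, which did not pass the test and each have 1 window with a run of 3 inverted GAA units. Each line is a window of 300 bases, 250 before the transcription start and 50 from it on, read 5′ to 3′ on the gene's strand from RefSeq sequence of build GRCh38.p14. Capitals mark an exact match to GAANNTTC or TTCNNGAA, either order of 2 inverted GAA units, or to 3 such units in a row.
DNAJB1, chr19:14518348-14518647, minus strand: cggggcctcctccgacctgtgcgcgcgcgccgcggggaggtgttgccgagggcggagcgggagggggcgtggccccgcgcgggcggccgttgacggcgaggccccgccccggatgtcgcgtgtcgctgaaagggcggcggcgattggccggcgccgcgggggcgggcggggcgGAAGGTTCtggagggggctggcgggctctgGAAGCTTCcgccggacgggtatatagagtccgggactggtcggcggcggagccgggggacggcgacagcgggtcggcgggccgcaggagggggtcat
HSPH1, chr13:31162339-31162638, minus strand: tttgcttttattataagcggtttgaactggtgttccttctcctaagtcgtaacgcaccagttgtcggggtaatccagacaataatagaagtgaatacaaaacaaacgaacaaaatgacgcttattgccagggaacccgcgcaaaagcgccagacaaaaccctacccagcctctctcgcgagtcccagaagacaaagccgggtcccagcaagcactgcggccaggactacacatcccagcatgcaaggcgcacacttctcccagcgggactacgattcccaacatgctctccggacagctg
HSP90AA1, chr14:102086995-102087294, minus strand: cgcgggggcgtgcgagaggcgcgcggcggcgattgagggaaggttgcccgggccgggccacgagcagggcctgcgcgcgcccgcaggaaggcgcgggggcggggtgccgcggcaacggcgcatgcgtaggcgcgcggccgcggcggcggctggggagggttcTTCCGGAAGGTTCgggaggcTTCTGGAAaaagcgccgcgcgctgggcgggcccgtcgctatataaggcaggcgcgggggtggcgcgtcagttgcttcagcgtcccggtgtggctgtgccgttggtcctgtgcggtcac
HSP90AB1, chr6:44247693-44247992, plus strand: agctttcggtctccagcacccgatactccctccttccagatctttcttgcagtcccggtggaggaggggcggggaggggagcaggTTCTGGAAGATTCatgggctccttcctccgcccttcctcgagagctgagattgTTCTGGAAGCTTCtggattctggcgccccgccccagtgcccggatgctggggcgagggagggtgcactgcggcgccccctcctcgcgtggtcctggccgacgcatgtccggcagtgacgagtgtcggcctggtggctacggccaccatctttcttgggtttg

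RefSeq gives other starts for 3 of these genes, and the window shown is the one with the most matches. Of the 2 other windows of DNAJB1, 1 held a pair, and the other HSP90AA1 window and both other HSP90AB1 windows held none. In the DNAJB1 window shown, 2 pairs started 77 and 47 bases before the start. In that of HSP90AA1, a run of 3 units began 88 bases before the start, and that of HSP90AB1 held 2 such runs, at 165 and 112 bases. The HSPH1 window had no match to any of these motifs, which says only that those letters are not in these 300 bases. Over the 15 windows of the 9 members with a window (HSF1 was left out), GAANNTTC lay in 7 windows of 6 members, against 6.77% of all 35116 windows of the table. TTCNNGAA lay in 4 windows of 4 members, against 7.74% of all windows, and both motifs overlap wherever 3 units follow one another. Runs of 3 units occurred in 4 member windows, those of HSPA8, HSP90AA1, HSP90AB1 and HSPD1, against 0.49% of all windows. The motif of PPARα and its partner RXR was searched on either strand as 2 copies of AGGTCA in 1 direction with 1 base between. It was in 0 of the 15 windows and in 0.0228% of all windows. An exact match is so rare that this 0 does not bear on whether the members have such a site. The core bound by MTF1, searched as TGCACNC or TGCGCNC on either strand, was in 9 windows of 7 members, but it is short and stood in 29.6% of all windows. A match describes letters and not binding.

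Of the 9 measured genes 2 passed against vehicle, both at 24 h and both as lower. Over all genes, 8.17% passed at 24 h and 2.80% passed as lower. Both encode partners of Hsp70, as does BAG3, which did not pass. At 6 h none of the 9 passed, where 3.54% of all genes did. By 24 h DNAJB1, a J-domain protein that hands substrates to Hsp70 and stimulates its ATPase, was 1.26-fold lower than in vehicle, and HSPH1, an Hsp110 that releases ADP from Hsp70 and keeps aggregates soluble, was 1.34-fold lower. Both Hsp90 genes, HSPB1, the mitochondrial pair, BAG3 and HSF1 did not pass in either comparison with vehicle. In the same arrays 8 of 9 measured metallothioneins rose at both times. All values are log2 signals on the scale of RMA, a method that corrects background and brings arrays to 1 distribution, and a difference of 1 is a doubling.

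Array medians lay between 5.61 and 5.68, as RMA sets them, correlations within a group between 0.997 and 0.999 and those between groups between 0.995 and 0.998. Hepatocyte markers were high, with albumin at 14.77 on average, and 8 of 9 listed markers were measured. Of the 13 measured markers of other cells, 5 were above the median gene signal, among them lysozyme (LYZ, 11.93) and the bile duct keratin KRT19 (10.70). Vehicle replicate 2 stood apart on a few features: its actin probe sets near both ends of the transcript differed by 0.15, against 0.25 to 0.40 on the other 8 arrays, and 18 genes lay over 0.5 log2 units from their group mean there, against 0 to 8 elsewhere. Member values that it moves most are given with and without it.

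**Figure D1:**
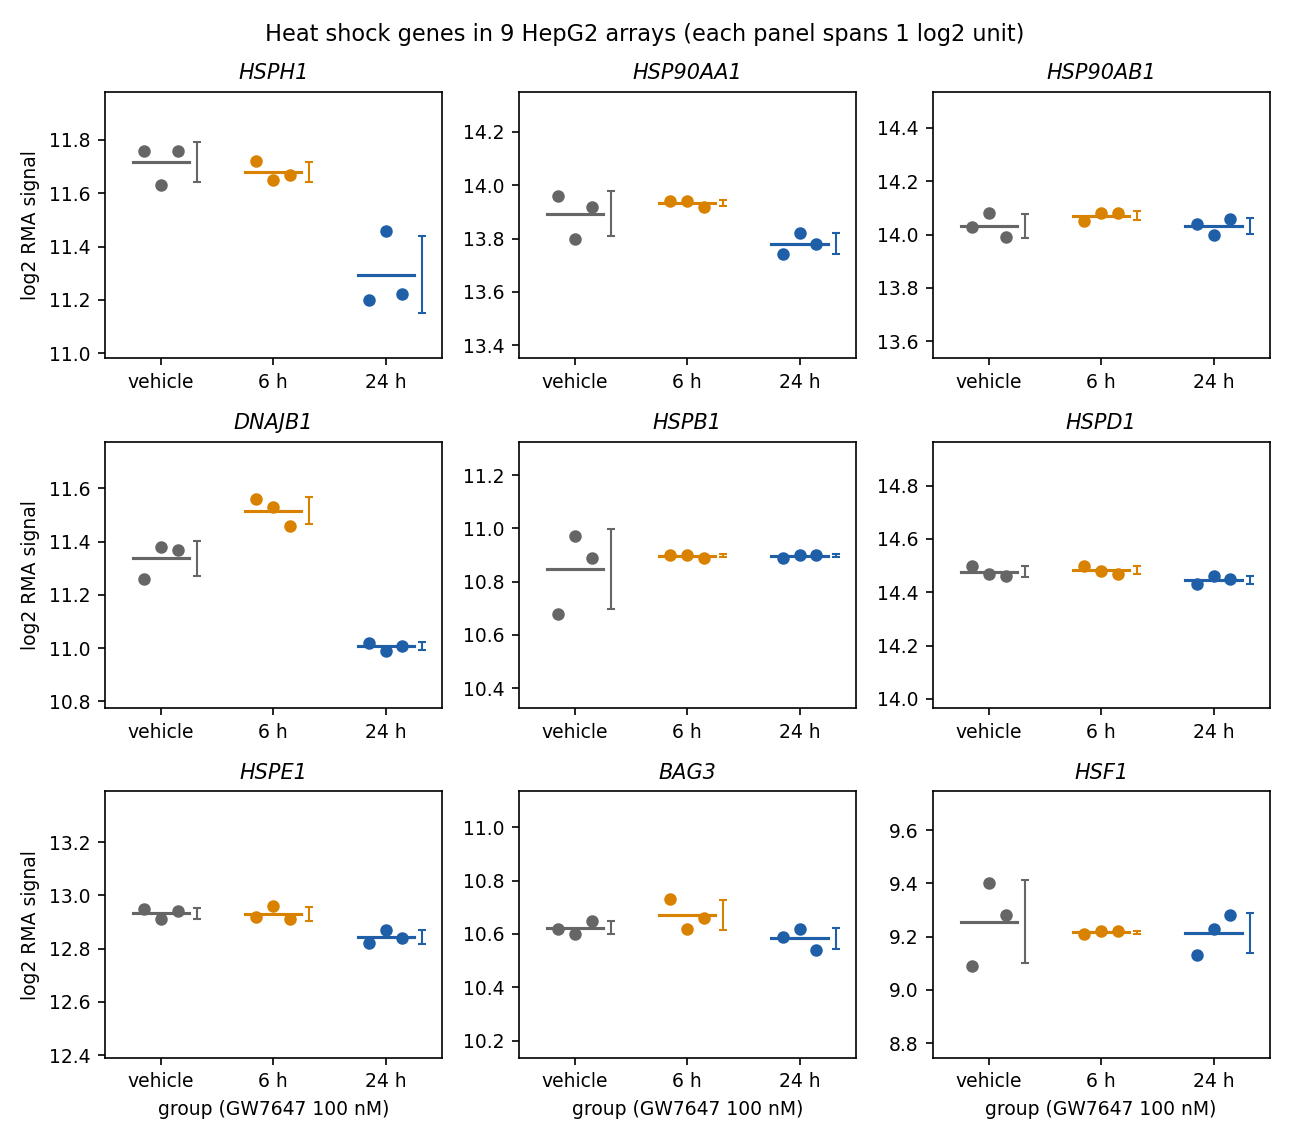
Log2 RMA signal of the 9 measured heat shock genes on each of the 9 arrays (1 point per array; horizontal line, group mean; bar, SD; n = 3 per group), with every panel spanning 1 log2 unit so that slopes can be compared but levels cannot be set against each other. The 24 h arrays of HSPH1 and DNAJB1 sit below all of their vehicle and 6 h arrays, and the vehicle arrays of HSPB1 and HSF1 spread more widely than the treated ones.

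Differences were tested with limma across all 19775 genes, taking for each gene the probe set of highest mean signal, and a gene passed at a Benjamini-Hochberg adjusted p under 0.05. For 6 h against vehicle, 0 of 9 members passed, where 3.54% of all genes did. At an unadjusted p under 0.05 the same test held 1 of 9 members, DNAJB1, and 3227 of all genes. The median member difference was 0.038 against 0.004 over all genes. For 24 h against vehicle, 2 of 9 members fell and 0 rose, where 8.17% of all genes passed and 2.80% passed as lower. The median member difference was then -0.042 against 0.003 over all genes. For 24 h against 6 h, the same 2 members fell and 0 rose, against 13.8% of all genes passing and 4.57% passing as lower, with medians of -0.086 and -0.010. The comparisons share arrays, so they are not independent of each other. In RNA from whole cultures, less RNA per cell and fewer cells with the RNA cannot be told apart.

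DNAJB1 showed the clearest course of the set. On probe set 200666_s_at the vehicle arrays read 11.26, 11.38 and 11.37, the 6 h arrays 11.56, 11.53 and 11.46, and the 24 h arrays 11.02, 10.99 and 11.01. The 3 groups did not overlap: the 6 h arrays were the highest and the 24 h arrays the lowest. The 24 h mean was below vehicle by 0.33 ± 0.06 (difference -0.33, SE, 95% interval -0.45 to -0.20; n = 3 per group; limma adjusted p = 0.00510). Against 6 h it was 1.42-fold lower, with an interval of 1.30 to 1.55 and a limma adjusted p of 2.47e-04.

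At 6 h every DNAJB1 array of that probe set was above every vehicle array, but the gene did not pass. Its difference from vehicle was 0.18 ± 0.06 (SE; 95% interval 0.05 to 0.30), with the nearest arrays of the 2 groups 0.08 apart, and the limma adjusted p was 0.130. With an intensity trend and a robust prior in limma the adjusted p became 0.0322, and among genes above the median signal it became 0.0416. The second DNAJB1 probe set, 200664_s_at, read 10.83, 11.16 and 10.99 in vehicle, 11.18, 11.19 and 11.09 at 6 h and 10.68, 10.76 and 10.72 at 24 h. There the 6 h and vehicle arrays overlapped, and the 24 h arrays were again the lowest. In the limma fit of all 54613 probe sets this second probe set fell by 0.44 from 6 h to 24 h (adjusted p = 0.00718), and its difference of -0.28 between 24 h and vehicle had an adjusted p of 0.0845. The latter was -0.20 (adjusted p = 0.170) without vehicle replicate 2 and -0.36 (adjusted p = 0.0359) without vehicle replicate 1.

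HSPH1 stayed near vehicle at 6 h and was low at 24 h. Its representative probe set 206976_s_at read 11.76, 11.63 and 11.76 in vehicle, 11.72, 11.65 and 11.67 at 6 h and 11.20, 11.46 and 11.22 at 24 h. The vehicle and 6 h arrays overlapped, and every 24 h array lay below both groups, with replicate 2 closest to them. The 24 h difference from vehicle was -0.42 ± 0.07 (SE; 95% interval -0.59 to -0.26; n = 3 per group; limma adjusted p = 0.00553). From 6 h to 24 h the difference was -0.39 ± 0.07 (SE; limma adjusted p = 0.00560), a level 1.31-fold lower. The difference at 6 h was -0.04, with an interval of -0.20 to 0.13.

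The other HSPH1 probe sets also read low at 24 h but parted at 6 h. Probe set 208744_x_at read 10.46, 10.70 and 10.62 in vehicle, 10.56, 10.51 and 10.54 at 6 h and 10.20, 10.12 and 10.16 at 24 h. Its 24 h arrays were below all others, and its 6 h arrays fell among the vehicle arrays. Probe set 235573_at read 7.17, 6.95 and 7.14 in vehicle, 7.65, 7.40 and 7.43 at 6 h and 6.34, 6.80 and 6.52 at 24 h. Its 3 groups did not overlap, with the 6 h arrays highest. At 6 h its difference from vehicle was 0.40 (95% interval 0.15 to 0.66; adjusted p = 0.133), whereas 208744_x_at stood at -0.06. Whether the probe sets of HSPH1 differ from one another at 6 h was not tested.

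At 24 h against vehicle all 3 HSPH1 probe sets passed over all probe sets in limma: -0.42 for 206976_s_at (adjusted p = 0.0111), -0.44 for 208744_x_at (adjusted p = 0.00531) and -0.53 for 235573_at (adjusted p = 0.0251). The last of these did not pass without vehicle replicate 1 (adjusted p = 0.0959), vehicle replicate 3 (0.0680), 24 h replicate 1 (0.0886) or 24 h replicate 3 (0.0824). From 6 h to 24 h, HSPH1 235573_at fell by 0.94 (adjusted p = 7.38e-04), 208744_x_at by 0.38 (0.00707) and 206976_s_at by 0.39 (0.0114). Without 6 h replicate 1 the difference of 206976_s_at had an adjusted p of 0.0531.

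BAG3 binds Hsp70, releases its nucleotide and steers clients to autophagy, and it is among the genes that HSF1 raises under protein damage. Its arrays read 10.62, 10.60 and 10.65 in vehicle, 10.73, 10.62 and 10.66 at 6 h and 10.59, 10.62 and 10.54 at 24 h. All 3 groups overlapped. The differences from vehicle were 0.05 at 6 h (95% interval -0.07 to 0.17; limma adjusted p = 0.727) and -0.04 at 24 h (-0.16 to 0.08; limma adjusted p = 0.729).

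HSP90AA1 and HSP90AB1 encode the stress-inducible and the constitutive cytosolic Hsp90, the chaperones of kinases and nuclear receptors, PPARα among them. Both have many processed pseudogenes and share stretches of sequence, so their probe sets may pick up related transcripts. HSP90AA1 read 13.96, 13.80 and 13.92 in vehicle, 13.94, 13.94 and 13.92 at 6 h and 13.74, 13.82 and 13.78 at 24 h on 214328_s_at. The 24 h arrays overlapped the vehicle arrays and lay below the 6 h arrays. Its difference from vehicle was 0.04 at 6 h (limma adjusted p = 0.805) and -0.11 at 24 h (95% interval -0.24 to 0.01; limma adjusted p = 0.295). Without vehicle replicate 2, HSP90AA1 stood at -0.01 at 6 h and -0.16 at 24 h (adjusted p = 0.961 and 0.106).

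Between 6 h and 24 h the HSP90AA1 difference was -0.15 (95% interval -0.28 to -0.02; limma adjusted p = 0.119). It passed with an intensity trend and a robust prior (adjusted p = 0.0117), with array weights (0.0493) and among genes above the median signal (0.0418). Over the 4 HSP90AA1 probe sets, which are not independent counts, the differences from 6 h to 24 h ran from -0.10 to -0.23. Only 211968_s_at passed in the limma fit of all probe sets (-0.23, adjusted p = 0.0239). Its arrays read 13.29, 13.25 and 13.28 in vehicle, 13.36, 13.40 and 13.36 at 6 h and 13.15, 13.11 and 13.15 at 24 h, with no overlap between groups. That call was lost without any 1 of the 6 h or 24 h arrays, with adjusted p between 0.0563 and 0.0968.

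HSP90AB1 differed by little. On 200064_at it read 14.03, 14.08 and 13.99 in vehicle, 14.05, 14.08 and 14.08 at 6 h and 14.04, 14.00 and 14.06 at 24 h, and all groups overlapped. The difference at 24 h was 0.00, with an interval of -0.11 to 0.11 (limma adjusted p = 0.998), and at 6 h 0.04, with an interval of -0.08 to 0.15 (limma adjusted p = 0.776). Over the 3 probe sets of HSP90AB1, the differences from vehicle ran from -0.05 to 0.04. The array also limits this reading: all probe sets of HSP90AB1 and HSP90AA1, 2 of HSPD1 and that of HSPE1 lie above the 99th percentile of probe set means (12.44), where signals can flatten.

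HSPB1, also called Hsp27, is a small heat shock protein that holds unfolding proteins without ATP and stabilises actin. It read 10.68, 10.97 and 10.89 in vehicle, 10.90, 10.90 and 10.89 at 6 h and 10.89, 10.90 and 10.90 at 24 h. The treated arrays fell within the span of the vehicle arrays, whose SD was 0.15. Its difference was 0.05 at both times, with an interval of -0.11 to 0.21, and limma adjusted p of 0.796 at 6 h and 0.755 at 24 h. Without vehicle replicate 2, the difference of HSPB1 was 0.11 at both times (adjusted p = 0.458 and 0.370).

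HSPD1 (Hsp60) and HSPE1 (Hsp10) form the chaperonin chamber and lid of the mitochondrial matrix. Their genes lie head to head on chromosome 2, with the nearest starts 105 bases apart and promoter windows that share 204 bases. HSPE1 read 12.95, 12.91 and 12.94 in vehicle, 12.92, 12.96 and 12.91 at 6 h and 12.82, 12.87 and 12.84 at 24 h. Its 24 h arrays lay below all 6 others, yet the difference of -0.09 from vehicle (95% interval -0.20 to 0.02) had a limma adjusted p of 0.340. HSPD1 read 14.50, 14.47 and 14.46 in vehicle, 14.50, 14.48 and 14.47 at 6 h and 14.43, 14.46 and 14.45 at 24 h on 200807_s_at. The 24 h difference from vehicle was -0.03 (95% interval -0.14 to 0.08; limma adjusted p = 0.796).

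HSPD1 has 4 further probe sets, of which 1 passed in 1 comparison. Probe set 243372_at read 8.30, 8.21 and 8.39 in vehicle, 8.52, 8.37 and 8.35 at 6 h and 8.08, 8.20 and 8.08 at 24 h. Its 24 h arrays lay below both other groups, and from 6 h to 24 h it fell by 0.29 (limma adjusted p = 0.0330 over all probe sets). The call for HSPD1 243372_at was lost without 1 of 5 arrays, each 6 h array and 24 h replicates 1 and 3, with adjusted p between 0.0594 and 0.134. Probe set 241716_at read 7.52, 6.19 and 7.64 in vehicle, 7.70, 7.94 and 7.52 at 6 h and 7.19, 7.37 and 7.25 at 24 h. Vehicle replicate 2 was far below every other array there. With it, the 241716_at difference from 6 h to 24 h was -0.45 with an adjusted p of 0.457, and without it -0.45 with an adjusted p of 0.0232. The 6 h difference of HSPD1 241716_at from vehicle was 0.61 with that array and 0.14 without it. Probe set 243845_at ran from 5.33 to 5.51 over all arrays, and 200806_s_at from 13.95 to 14.02.

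HSF1 itself read 9.09, 9.40 and 9.28 in vehicle, 9.21, 9.22 and 9.22 at 6 h and 9.13, 9.23 and 9.28 at 24 h on 202344_at. The groups overlapped, and the difference was -0.04 at both times with limma adjusted p of 0.835 and 0.820. Without vehicle replicate 2 it was 0.03 at both times (adjusted p = 0.892 and 0.860). On 213756_s_at, HSF1 read 7.41, 8.12 and 7.43 in vehicle, 7.32, 7.32 and 7.43 at 6 h and 7.52, 7.35 and 7.43 at 24 h. The difference of -0.30 at 6 h on that probe set was -0.06 without vehicle replicate 2. HSF1 is switched on mainly by trimer formation and phosphorylation of existing protein, which an expression array does not measure.

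**Figure D2:**
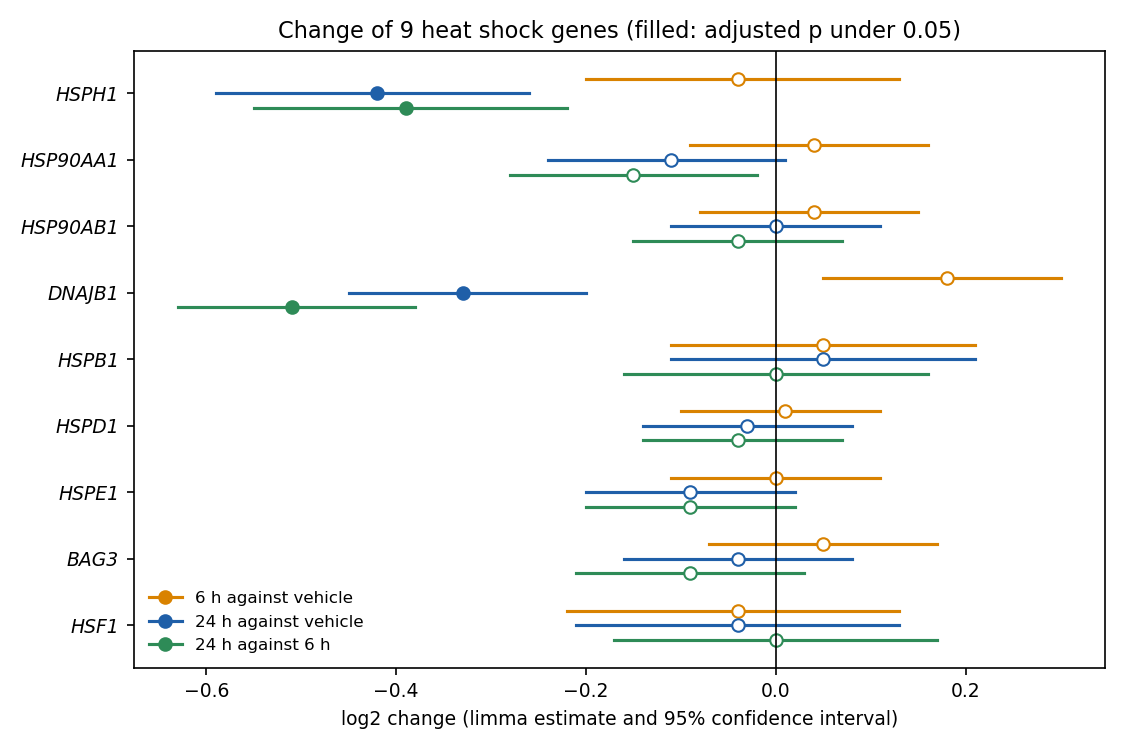
Log2 change of each measured heat shock gene in the 3 comparisons (point, limma estimate; line, 95% confidence interval; filled, adjusted p under 0.05). DNAJB1 and HSPH1 have filled points at 24 h against vehicle and at 24 h against 6 h, and the 6 h interval of DNAJB1, from 0.05 to 0.30, is open because its adjusted p was 0.130.

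On the probe set that represents each gene, the members that did not pass differed by little. At 6 h the differences of all 9 uncalled members ran from -0.04 to 0.18, with interval ends between -0.22 and 0.30. At 24 h the 7 uncalled members ran from -0.11 to 0.05, with interval ends between -0.24 and 0.21. From 6 h to 24 h they ran from -0.15 to 0.00, with interval ends between -0.28 and 0.17. A missed threshold does not show that these genes were the same in both groups, and these ends hold for the representative probe sets alone. Between 6 h and 24 h, HSPD1 243372_at had an interval of -0.45 to -0.13 and HSP90AA1 211968_s_at one of -0.35 to -0.11, and at 24 h against vehicle the interval of HSPD1 241716_at ran from -0.49 to 0.81. For scale, the range from the 5th to the 95th percentile of all genes was -0.21 to 0.21 at 6 h and -0.22 to 0.27 at 24 h.

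Read probe set by probe set, the late differences leaned downwards. At 6 h 0 of the 22 probe sets passed, against 1.47% of all probe sets. Of the 22, 2 had an unadjusted p under 0.05, and the share of all probe sets under that threshold is not given here. In the limma fit over genes, 3227 of all 19775 genes were under it at 6 h, so the 2 are no sign of an early response. At 24 h against vehicle 4 of 22 fell and 0 rose, against 4.39% of all probe sets passing and 1.80% passing as lower. Those 4 were the 3 of HSPH1 and 200666_s_at of DNAJB1. From 6 h to 24 h 7 of 22 fell and 0 rose, against 7.66% passing and 2.84% passing as lower. They comprised 3 of HSPH1, 2 of DNAJB1, 1 of HSP90AA1 and 1 of HSPD1. Counting signs alone, 8 of 22 lay below 0 at 6 h, 18 of 22 at 24 h and 17 of 22 for 24 h against 6 h, where the shares over all probe sets were 47.2%, 51.6% and 56.1%. Probe sets of 1 gene share its RNA and are not independent counts.

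**Figure D3:**
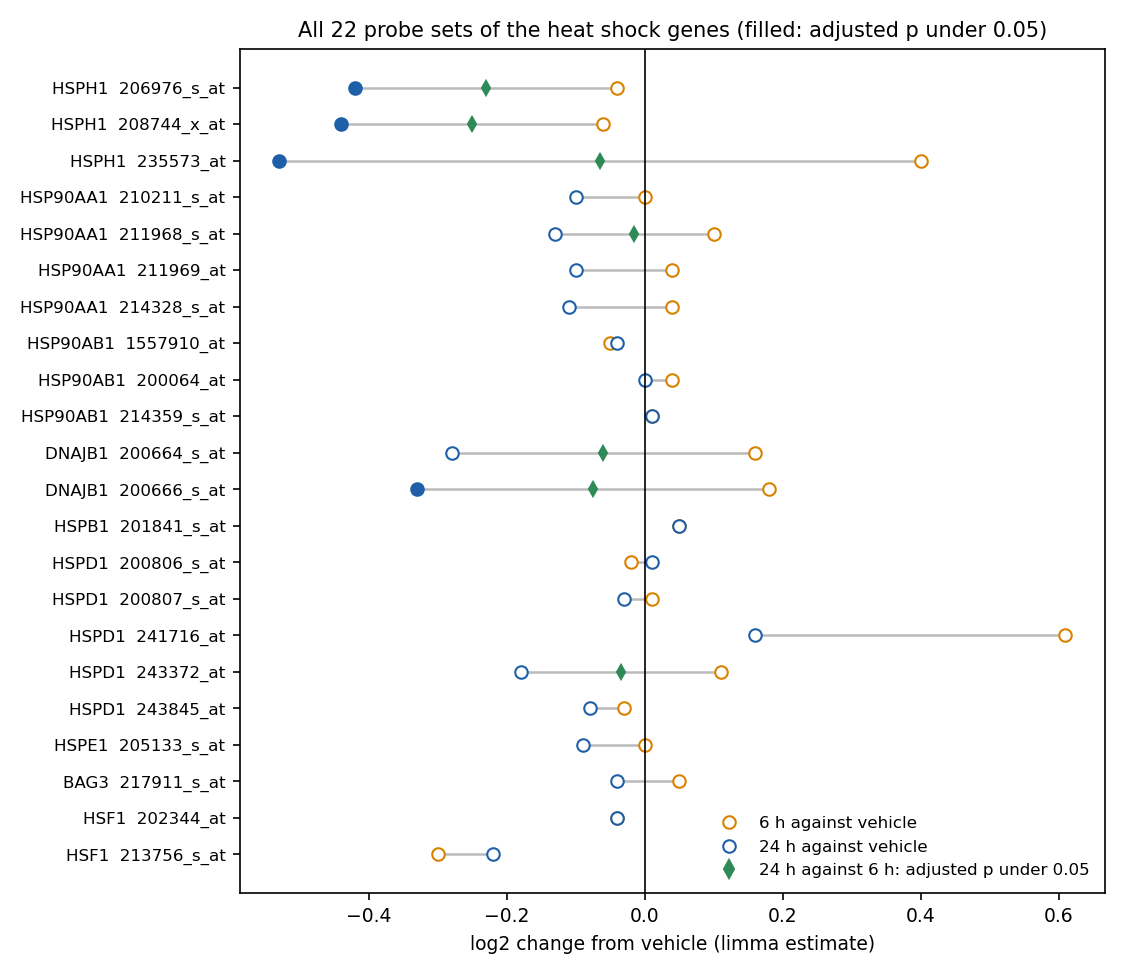
Log2 change from vehicle at 6 h (orange) and 24 h (blue) for the 22 probe sets of the heat shock genes, joined by a line per probe set (filled, adjusted p under 0.05; green diamond, drawn at the middle of the line, 24 h against 6 h passed). The 3 HSPH1 probe sets meet at 24 h, between -0.53 and -0.42, while 235573_at alone stands at 0.40 at 6 h, and the wide open points of HSPD1 241716_at (0.61) and HSF1 213756_s_at (-0.30) rest on vehicle replicate 2.

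Genes with array profiles most like the 2 fallen members were sought among 3309 other genes that passed in any comparison, by the root mean square difference over the 9 arrays after centring each gene. Closest to DNAJB1 were MOB4, a subunit of the striatin phosphatase complex, at 0.032 log2 units and CCNE1, cyclin E1, at 0.038, against a median of 0.320. MOB4 differed from vehicle by 0.22 at 6 h (limma adjusted p = 0.0562) and fell by 0.35 at 24 h (0.00259). CCNE1 rose by 0.23 at 6 h (limma adjusted p = 0.0306) and fell by 0.28 at 24 h (0.00570). Closest to HSPH1 were ROBO1, a guidance receptor, at 0.051 and TUBB2A, a beta tubulin, at 0.055, against a median of 0.303. ROBO1 stood at 0.00 at 6 h and fell by 0.33 at 24 h (limma adjusted p = 0.0172), and TUBB2A stood at 0.00 and fell by 0.30 (0.0249). Being picked as nearest puts these genes below the median distance, and candidates were kept for passing. Neither shows that the likeness is unusual.

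The rest of the folding system gives the surroundings of the members, read against 3.54% of all genes passing at 6 h, 8.17% at 24 h (2.80% as lower) and 13.8% between the times (4.57% as lower). Of 21 measured other cytosolic Hsp70, J-domain and small heat shock genes, 0 passed at 6 h, and at 24 h 1 rose and 3 fell, with a median of -0.05. The riser was DNAJA2, another J-domain partner of Hsp70 (0.41 ± 0.05, SE; limma adjusted p = 7.07e-04). DNAJC2, a J-domain protein of the ribosome, differed by -0.37 (0.00997), the ribosome-associated HSPA14 by -0.23 (0.0498) and HSPA4L, an Hsp110 like HSPH1, by -0.22 (0.0388). Between the times 2 rose, DNAJB6 (0.35) and DNAJA2 (0.24), and 3 fell, DNAJC2 (-0.41), HSPA4L (-0.21) and DNAJA1 (-0.20). The strongly inducible HSPA1A and HSPA1B were not analysed here.

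Cochaperones assist Hsp70 and Hsp90, and their counts are read against the same shares of all genes. Of 20 measured Hsp90 and Hsp70 cochaperones, TTC4 rose at 6 h (0.27, limma adjusted p = 0.0258), BAG2 fell at 24 h (-0.20, 0.0493), and the medians were -0.03 and -0.02. Between 6 h and 24 h 2 rose, BAG6 (0.31) and BAG4 (0.21), and 3 fell, TTC4 (-0.26), FKBP5 (-0.21) and CACYBP (-0.19). Of 12 measured genes of the CCT chaperonin and prefoldin, which fold actin and tubulin, 0 passed against vehicle, at medians of 0.02 and -0.08, and VBP1 fell from 6 h to 24 h (-0.23). Of 4 measured other heat shock factors and binding proteins 0 passed in any of the 3 comparisons, with differences from -0.15 to 0.22.

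Mitochondria and the endoplasmic reticulum have chaperones of their own. The shares of all genes passing were again 3.54% at 6 h, 8.17% at 24 h and 13.8% between the times. As lower, 2.80% passed at 24 h and 4.57% between the times. Of 15 measured mitochondrial chaperones and proteases, a list that leaves out HSPD1 and HSPE1, 0 fell and 2 rose at 24 h, DNAJA3 (0.28, limma adjusted p = 0.00981) and the protease HTRA2 (0.28, 0.0285). The median of that list was -0.02 at 6 h and 0.12 at 24 h, and from 6 h to 24 h 4 rose, with HTRA2 at 0.43, CLPX at 0.28 and LONP1 at 0.27. Of 18 measured genes of the endoplasmic reticulum list, which is wider than chaperones, HERPUD1 fell at 6 h (-0.23) and rose at 24 h (0.27). At 24 h 4 members of that list fell, among them DNAJC10 (-0.34), DNAJB11 (-0.27) and SEL1L (-0.23), and the median was -0.19. Against 6 h, HERPUD1 (0.51) and PDIA4 (0.21) rose, and DNAJC10 (-0.46) and DNAJB9 (-0.42) fell.

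Over all genes, 8.17% passed at 24 h and 13.8% between the times, with 2.80% and 4.57% as lower. Of 27 measured proteasome subunits, 0 passed at 6 h and 4 fell at 24 h, led by PSMD1 (-0.40, limma adjusted p = 0.00115), PSMC2 (-0.27) and PSMA3 (-0.26), with a median of -0.06. Against 6 h, 6 fell at 24 h, led by PSMD1 (-0.38), PSMA3 (-0.29) and PSMC1 (-0.27), and PSMB6 rose (0.30). Of 7 measured genes of ubiquitin and aggregate clearance, the autophagy receptor NBR1 fell at 6 h (-0.42, limma adjusted p = 0.00668) and rose at 24 h (0.47, 0.00164), a difference of 0.89 between the times. OPTN, another autophagy receptor, fell at 24 h (-0.44, limma adjusted p = 0.00244) and stood lower than at 6 h (-0.41, 0.00220).

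Metallothioneins set the contrast in scale. At 6 h, where 3.54% of all genes passed, 8 of 9 measured genes rose and 0 fell, with a median of 2.10, against 0 of 9 heat shock members and a median of 0.038. MT1G differed by 2.42, MT1F by 2.31 and MT1E by 2.27, though the probe sets of this family can share transcripts. At 24 h 8 rose, with a median of 1.37, led by MT1G (1.86), MT1F (1.66) and MT1H (1.45), while DNAJB1 and HSPH1 fell. Thereafter, between 6 h and 24 h, 8 metallothioneins fell, at a median of -0.63, with MT1E at -0.86, MT1X at -0.83 and MT1F at -0.65.

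**Figure D4:**
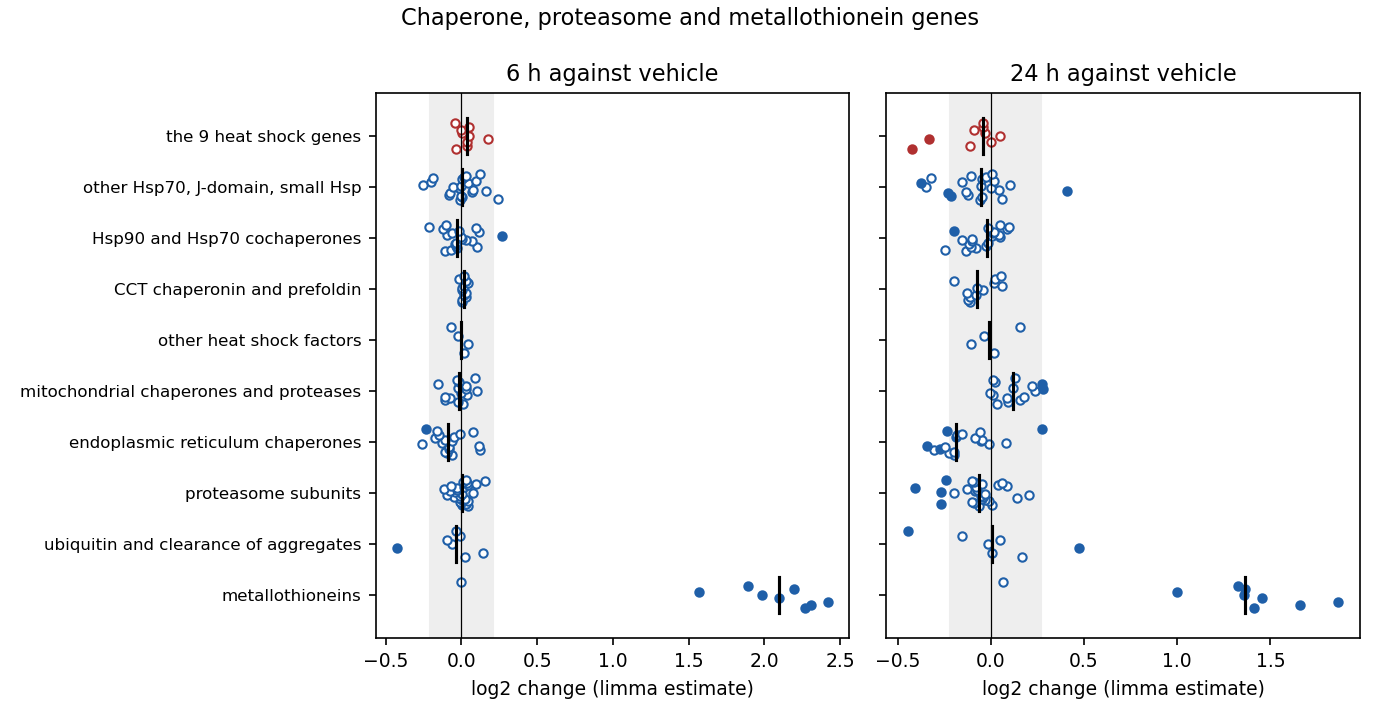
Log2 change from vehicle at 6 h and 24 h for the 9 measured heat shock genes (red) and 9 other gene lists (blue), 1 point per gene (filled, adjusted p under 0.05; black line, list median; grey band, 5th to 95th percentile of all genes). The heat shock genes lie within the grey band except DNAJB1 and HSPH1 at 24 h, while 8 of 9 metallothioneins lie far to the right of it.

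Marker counts are read against 3.54% of all genes passing at 6 h, 8.17% at 24 h and 13.8% between the times. The shares passing as lower were 2.80% at 24 h and 4.57% between the times. Among 8 measured hepatocyte markers, 0 passed at 6 h and 2 fell at 24 h, fibrinogen beta (FGB, -0.67) and transthyretin (TTR, -0.55). Both were also lower than at 6 h, by differences of -0.54 and -0.46. The other 6 did not pass: SERPINA1 averaged 14.24 in vehicle and 14.35 at 24 h, TF 14.25 and 14.34, and the list median at 24 h was -0.05. The mean over the 8 markers was 13.42 to 13.47 on the vehicle arrays, 13.39 to 13.40 at 6 h and 13.28 to 13.30 at 24 h. Over the 13 markers of other cells the array means were 6.52 to 6.60, 6.54 to 6.60 and 6.51 to 6.57 in the same order, and 0 of 13 passed in any comparison. The part of the lower FGB and TTR in the lower DNAJB1 and HSPH1 was not tested.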

How the data were processed

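Total RNA of 9 HepG2 samples was hybridised to Affymetrix arrays, per the labels. The authors deposited log2 signals made with RMA, per the submitters' processing notes. The sources used here give no version, software or chip definition for it. The values, 2.66 to 15.0 with 0 missing, were used unchanged. Their number of arrays, not depth, limits precision.

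Of 54675 probe sets, 62 were controls; 41091 of the rest had 1 gene symbol, 1801 had several and 11721 had none. For each of 19775 genes the probe set of highest mean signal was taken, and a second fit took all 54613 probe sets. Both were fitted in R 4.3.3 with limma 3.58.1 (lmFit on group means over all 9 arrays, eBayes, two-sided, 6 residual and 11.0 total degrees of freedom) and adjusted by Benjamini-Hochberg within each of 3 comparisons. The script was tested on simulated data. An exact test of 3 arrays against 3 cannot go below 0.10.

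All members are named. Other lists name up to 3 largest rises and 3 largest falls past the threshold per comparison, and the 2 nearest genes are given per member that passed. Members and lists were chosen with earlier results of these data known. Gene symbols and promoter windows came from the array annotation and RefSeq (GRCh38.p14). The labels do not say that replicate numbers pair samples, so they were not taken to. Deviations of same-numbered replicates correlated at -0.20 to 0.09 over 9 pairs, and those of differently numbered ones at -0.24 to 0.25 over 18. With 3 arrays a group, these ranges cannot exclude pairing. The alternatives were a replicate block, only the compared groups, an intensity trend with robust prior, array weights, genes above the median signal, quantile normalization, median centring, the mean of probe sets, no probe sets ending in _x_at or _s_at, an adjusted p under 0.01, and leaving out each array.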

Additional observations from a re-analysis of the deposited data

Results flagged for a closer look

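The 24 h and 6 h groups share the vehicle arrays, so 24 h was also compared directly with 6 h. In that comparison hours in culture and hours of exposure cannot be told apart. By it 7 of 22 probe sets of the heat shock genes passed, all as lower (limma, n = 3 per group). Over all probe sets, 7.66% passed and 2.84% passed as lower. Probe sets of 1 gene are not independent counts. In the fit over genes, which reads 200666_s_at for DNAJB1 and 206976_s_at for HSPH1, DNAJB1 stood at -0.51 (adjusted p = 2.47e-04) and HSPH1 at -0.39 (adjusted p = 0.00560). In the fit over probe sets, where those measurements appear again, HSPH1 differed on 235573_at by -0.94 (adjusted p = 7.38e-04), on 206976_s_at by -0.39 (0.0114) and on 208744_x_at by -0.38 (0.00707). DNAJB1 differed on 200666_s_at by -0.51 (adjusted p = 6.55e-04) and on 200664_s_at by -0.44 (0.00718). HSP90AA1 differed on 211968_s_at by -0.23 (adjusted p = 0.0239) and HSPD1 on 243372_at by -0.29 (0.0330). In all of these the 3 arrays at 24 h lay below the 3 at 6 h. The probe sets were picked for passing as lower, so this adds no support of its own.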

How the results depend on the processing

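DNAJB1 and HSPH1 passed at 24 h against vehicle and against 6 h under every alternative run for them, 18 for DNAJB1 and 19 for HSPH1. Both probe sets of DNAJB1 end in _s_at, so the gene drops out when such probe sets are left out. DNAJB1 ran from -0.37 to -0.30 (adjusted p 2.68e-04 to 0.0219) and from -0.56 to -0.47 (3.91e-06 to 0.00229). Its second probe set, 200664_s_at, passed in 18 of 18 settings at 24 h against 6 h. Against vehicle at 24 h it passed in 4 of 18, with the reported fit counted among the settings. HSPH1 ran from -0.53 to -0.38 (4.10e-04 to 0.0265) and from -0.94 to -0.34 (2.23e-04 to 0.0285), the -0.94 coming from 235573_at when probe sets ending in _x_at or _s_at were left out. Of 27 member results, each run under up to 19 alternatives, 0 reversed while called. Among results that were not called, the sign differed in 17 single runs, with some results counted more than once.

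Counts moved more. With a replicate block in the model, the 701 genes at 6 h became 427, 2 members still fell in each 24 h comparison, and the probe sets that fell were 3 and 5. Fitting the compared groups alone, genes called were 454 at 6 h and 921 at 24 h. An intensity trend with a robust prior gave 1104 genes and 1 member at 6 h, and genes above the median signal gave 1206 and 1. Without probe sets ending in _x_at or _s_at, 5 measured members were left, and DNAJB1 was not among them. Genes called were then 454 at 6 h and 1774 for 24 h against 6 h. Members called at 24 h were 1, and probe sets 1 at 24 h and 2 for 24 h against 6 h. HSPD1 was then represented by 243372_at and fell from 6 h to 24 h (-0.29, adjusted p = 0.0229). At an adjusted p under 0.01, genes called were 234, 695 and 1328, and probe sets 1 at 24 h and 4 for 24 h against 6 h. Leaving out 1 array gave 261 to 637 genes at 6 h, 1005 to 1664 at 24 h and 1519 to 3082 for 24 h against 6 h, while members stayed at 0, 2 and 2. Heat shock probe sets called ran from 3 to 4 at 24 h and from 4 to 8 for 24 h against 6 h, lowest without 6 h replicate 1. Shares of all probe sets passing under each alternative are not given here. Whether the heat shock probe set counts only follow those shares was not tested. Over all probe sets, HSP90AA1 211968_s_at and HSPD1 243372_at lost their call for 24 h against 6 h with the replicate block (adjusted p = 0.0615 and 0.0671) and with median centring (0.0526 and 0.0737). HSPH1 235573_at lost its 24 h call with the replicate block (0.0525) and in the fit of both compared groups alone (0.0667). The causes of these shifts were not tested, except that a stricter threshold or fewer probe sets leaves fewer to call. With 3 arrays a group, the median SE of a log2 difference was 0.07.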
